A study of Mus musculus with 24 samples.

Results

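A set of 10 genes of bile acid synthesis and its feedback control was followed through the livers of mice given ethanol, the plasticiser di(2-ethylhexyl) phthalate (DEHP) or both. The members were taken by symbol: the enzymes Cyp7a1, Cyp8b1, Cyp27a1, Cyp7b1 and Baat, the nuclear receptors Nr0b2, Nr1h4 and Nr5a2, and the surface receptor pair Fgfr4 and Klb. All 10 members were found, among 17537 genes listed above 0 in at least 1 library, and each was above 0 in all 24 libraries. None was removed by the filter on low values, so the 10 members are among 10697 genes tested.

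The livers came from male C57BL/6 mice of 20 to 30 g, dosed by gavage. The combination group received DEHP at 2500 mg/kg body weight with ethanol at 1 g/kg, the DEHP group DEHP alone at that dose, the ethanol group ethanol alone at that dose, and the vehicle group 0.5% CMC. Each group had 6 libraries, while the labels describe 12 mice per group and do not say whether a library is 1 animal or a pool. CMC is named for the vehicle group alone, and if the other groups had another carrier, its effect and that of the treatment cannot be told apart. The labels give no number of doses and no time of collection, which bears on genes with a daily rhythm such as Cyp7a1. The p-values therefore speak of the variation among the sequenced libraries, part of which may be technical.

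Bile acids are made from cholesterol in hepatocytes by a classic and an alternative route. CYP7A1 opens the classic route and sets its pace, CYP8B1 adds the hydroxyl group that directs the product to cholic acid, CYP27A1 oxidises the side chain and also opens the alternative route, and CYP7B1 continues that route. Returning bile acids activate the receptor FXR (Nr1h4), which induces the small heterodimer partner SHP (Nr0b2), a repressor of Cyp7a1 and Cyp8b1 transcription. In the intestine FXR induces the hormone FGF15, which acts on hepatocytes through the receptor FGFR4 and its co-receptor beta-klotho (Klb) and also lowers Cyp7a1. LRH-1 (Nr5a2) binds the promoters of Cyp7a1, Cyp8b1 and Nr0b2.

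Promoters of 7 of the 10 members were in the RefSeq table of GRCm38.p6, each as 300 bases from 250 before to 50 after the annotated start. Cyp7a1, Cyp7b1 and Baat had no entry. The promoters of Cyp8b1 and Nr0b2 are shown because they are those of the enzyme and the repressor that follow, and because they alone among these 7 hold a match to CAAGGNCA, the element of LRH-1 and related monomeric receptors. Capitals mark matches to the motifs searched on both strands. The Cyp8b1 sequence is the minus strand of chr9:121916256-121916555 and the Nr0b2 sequence the plus strand of chr4:133553126-133553425, both in GRCm38.p6.
Cyp8b1: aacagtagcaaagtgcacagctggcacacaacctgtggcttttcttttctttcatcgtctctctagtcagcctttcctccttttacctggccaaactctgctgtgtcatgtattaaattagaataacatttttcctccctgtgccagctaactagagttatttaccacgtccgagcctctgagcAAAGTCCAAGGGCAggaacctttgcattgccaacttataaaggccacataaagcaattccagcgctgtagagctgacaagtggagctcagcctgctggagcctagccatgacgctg
Nr0b2: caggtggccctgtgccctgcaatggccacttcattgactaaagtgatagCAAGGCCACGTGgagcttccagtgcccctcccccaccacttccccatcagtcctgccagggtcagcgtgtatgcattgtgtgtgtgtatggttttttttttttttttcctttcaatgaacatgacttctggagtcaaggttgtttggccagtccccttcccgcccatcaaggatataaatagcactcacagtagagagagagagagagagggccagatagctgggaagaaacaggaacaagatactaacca
In the Cyp8b1 promoter the element AAAGTCCA of the HNF4 family, with its first base 66 bases before the start, shares 2 bases with a CAAGGNCA match whose first base is 60 bases before the start. In the Nr0b2 promoter a CAAGGNCA match begins 201 bases before the start and shares 2 bases with the E-box CACGTG, which begins 195 bases before it. Of 32851 promoters of this length, 6.71% held CAAGGNCA, 1.25% AAAGTCCA and 7.15% CACGTG. The receptor half-site AGGTCA was present in 16.3% and the loose D-box pattern TTANGNAA in 11.5%. The half-site occurred in 1 of the Nr5a2 promoters and that of Nr1h4, and the D-box pattern in the Cyp27a1 promoter and both Nr5a2 promoters. These are letter matches and not measured binding.

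Total expected counts lay between 7324793 and 8016662 per library. Log2 changes, their standard errors (SE) and p-values come from edgeR's quasi-likelihood test on the counts of all 24 libraries, and a gene is called at a Benjamini-Hochberg adjusted p below 0.05. Levels are in FPKM, fragments scaled to transcript length and library size. The DEHP target Ehhadh, a peroxisomal oxidation enzyme, averaged 2659 FPKM with the combination and 2457 FPKM with DEHP, against 98.1 FPKM with vehicle. The summed FPKM of 5 hepatocyte markers, Alb among them, ranged from 37149 to 43578 with the combination and from 36417 to 44260.2 with DEHP, below the ethanol range of 55473 to 68581 and the vehicle range of 48900 to 67167. For 6 pericentral markers the ranges were 4389.9 to 5396 with the combination and 4793 to 6485 with DEHP. With ethanol they were 4189 to 5734 and with vehicle 3389.8 to 5148. Cyp2e1 made up most of these sums, at a mean of 3787 FPKM with the combination and 2837 FPKM with vehicle. Of the 6 markers, 1 was called higher and 2 lower in the combination against vehicle, beside 36.8% of all genes tested. For 6 periportal markers the ranges were 3724 to 4318 with the combination and 3545 to 5524 with DEHP. With ethanol they were 5081 to 5707 and with vehicle 4462 to 5977, so that the combination libraries lay below all ethanol and all vehicle libraries. In the combination against ethanol, 5 of 6 periportal, 3 of 6 pericentral and 4 of 5 hepatocyte markers were called lower and 0 higher. Beside them, 27.8% of all genes tested were called in that comparison, 12.7% lower. Stellate cell markers summed to 44.8 to 167 FPKM with the combination and 38.9 to 45.8 FPKM with DEHP. With ethanol they summed to 31.9 to 47.4 FPKM and with vehicle to 48.5 to 191 FPKM. The highest values were those of combination replicate 6 and vehicle replicate 1, the next highest 51.7 FPKM and 69.2 FPKM. The marker Des alone reached 101 FPKM with the combination (median 1.73 FPKM) and 119 FPKM with vehicle (median 1.67 FPKM). These 2 libraries also held the muscle transcripts given below. The part of these cells and zones in the members' levels was not tested. For 5 cholangiocyte markers, all listed in every group, the sums were 14 to 29.4 FPKM with the combination, 19.3 to 27.9 FPKM with DEHP, 16.8 to 19.4 FPKM with ethanol and 23.5 to 38.8 FPKM with vehicle. In 3 libraries transcripts of other tissue were present: skeletal muscle markers summed to 3465 FPKM in combination replicate 6 and 4618 FPKM in vehicle replicate 1, while no other library exceeded 3.34 FPKM, and in DEHP replicate 6 pancreas markers summed to 406 FPKM, while no other library exceeded 0.38 FPKM. Bulk tissue cannot tell fewer cells of a type from less RNA per cell.

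Cyp7a1 was higher after either compound alone but not after both. The gene (NCBI gene 13122) lies on chromosome 4 from 6265612 to 6275632 in GRCm38.p6. The combination libraries had 5.75 to 22 FPKM (median 13.8), the DEHP libraries 13.5 to 43.9 FPKM (median 28.7), the ethanol libraries 13.8 to 67.3 FPKM (median 31.7) and the vehicle libraries 6.95 to 21.2 FPKM (median 13.5). The ranges of neighbouring groups overlapped, although every DEHP and every ethanol library lay above the vehicle mean. The means were 13.9 ± 7.96 FPKM with the combination, 27.6 ± 10.1 FPKM with DEHP, 35.6 ± 18.2 FPKM with ethanol and 13.4 ± 4.75 FPKM with vehicle (SD, n = 6 each). Cyp7a1 rose with ethanol against vehicle by 1.46 ± 0.35 SE on the log2 scale (edgeR, adjusted p = 0.00389). It rose with DEHP against vehicle by 1.01 ± 0.35 SE (edgeR, adjusted p = 0.036). The DEHP call was lost without any of DEHP replicates 1, 3, 4 or 5 or vehicle replicates 1 to 5 (adjusted p from 0.0503 to 0.0928) and without a filter on low values (adjusted p = 0.0557). Without the 3 libraries holding muscle or pancreas transcripts it was 1.07 (adjusted p = 0.0431).

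With both compounds Cyp7a1 stood near the vehicle level. The combination against vehicle gave 0.05 ± 0.35 SE on the log2 scale (edgeR, adjusted p = 0.934), with a 95% interval from -0.69 to 0.79, which holds changes of either sign. Against ethanol alone, the combination fell by 1.42 ± 0.35 SE (edgeR, adjusted p = 0.00359), with all 6 libraries under the ethanol mean. Against DEHP alone it was lower by the estimate, at -0.97 ± 0.35 SE, which did not pass (edgeR, adjusted p = 0.326, unadjusted p = 0.011). The interaction, the ethanol change with DEHP minus the ethanol change without it, was -2.43 ± 0.50 SE (edgeR, adjusted p = 0.00459). It passed without each library in turn (-2.62 to -2.16) and without the 3 libraries with other tissue (-2.66, adjusted p = 0.0048). That Cyp7a1 did not add up was known when the members were chosen, so its p-value here is descriptive.

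**Figure D1:**
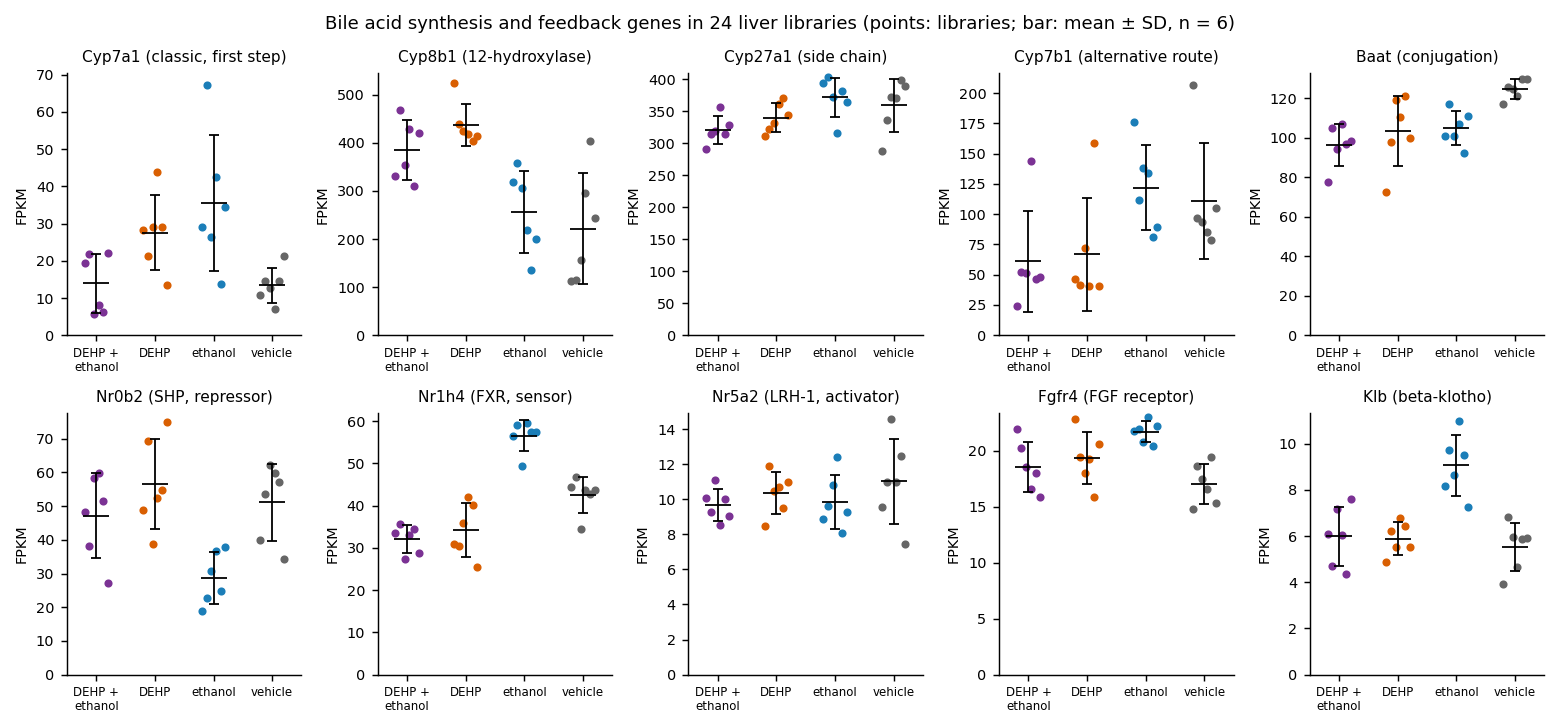
FPKM of the 10 members in each of 24 libraries (points), with the mean and SD of 6 libraries per group, for the combination, DEHP, ethanol and vehicle from left to right in each panel; each vertical axis starts at 0. Cyp7a1 averages 27.6 FPKM with DEHP and 35.6 FPKM with ethanol, against 13.9 FPKM with the combination and 13.4 FPKM with vehicle.

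Cyp8b1 was higher with DEHP and with the combination than with vehicle. The sterol 12-alpha-hydroxylase gene (gene 13124, chromosome 9, 121914356 to 121916305) had 310.4 to 468 FPKM in the combination libraries (median 387), 405 to 524 FPKM with DEHP (median 421), 136 to 358 FPKM with ethanol (median 262) and 112 to 404 FPKM with vehicle (median 200.3). The DEHP range lay just above the whole vehicle range and above the ethanol range, the ranges of the other pairs overlapped, and the spread was widest with vehicle, at a coefficient of variation of 52.3% against 9.99% with DEHP. Cyp8b1 rose with DEHP by 0.97 ± 0.25 SE on the log2 scale against vehicle (edgeR, adjusted p = 0.00618). The combination rose by 0.80 ± 0.25 SE against vehicle (edgeR, adjusted p = 0.0153), a call lost without the 3 libraries with other tissue (0.62, adjusted p = 0.0663). Against ethanol, the combination gave 0.51 ± 0.25 SE and did not pass (edgeR, adjusted p = 0.132), while on TPM it was called (0.70, limma, adjusted p = 0.0317). Ethanol alone against vehicle gave 0.28 ± 0.25 SE (edgeR, adjusted p = 0.411; 95% interval -0.24 to 0.80). The interaction, -0.45 ± 0.35 SE, did not pass (edgeR, adjusted p = 0.461), and the 95% interval from -1.19 to 0.28 does not hold the Cyp7a1 value of -2.43. The hepatocyte markers were lower in the same DEHP and combination libraries, and their part in the levels of Cyp8b1 was not tested.

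Cyp27a1 varied least among the enzymes of the first steps. The sterol 27-hydroxylase gene (gene 104086, chromosome 1, 74713148 to 74737897) had 292 to 357 FPKM with the combination, 311 to 370.3 FPKM with DEHP, 317 to 404 FPKM with ethanol and 288 to 399 FPKM with vehicle, all ranges overlapping. It passed in 1 comparison, the combination against ethanol, where it fell by 0.29 ± 0.08 SE on the log2 scale (edgeR, adjusted p = 0.00935). That call was lost on TPM (-0.16, adjusted p = 0.0925). The combination against vehicle gave -0.17 ± 0.08 SE (edgeR, adjusted p = 0.105) and was called without the 3 libraries with other tissue (-0.25, adjusted p = 0.0159) and without vehicle replicate 1 (-0.26, adjusted p = 0.0103).

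Cyp7b1, the oxysterol 7-alpha-hydroxylase gene of the alternative route (gene 13123, chromosome 3, 18071944 to 18243890), was lower with the combination than with ethanol alone, and 3 groups each had a single high library. The combination libraries had 24 to 144 FPKM (median 49.7), the DEHP libraries 40.9 to 159 FPKM (median 43.9), the ethanol libraries 81.3 to 176 FPKM (median 123) and the vehicle libraries 78.9 to 207 FPKM (median 95.2). In the combination and DEHP groups 5 of 6 libraries each lay below the lowest vehicle library, and 1 in each group lay far above the rest, replicate 4 of the combination at 144 FPKM and replicate 5 of DEHP at 159 FPKM. Against ethanol, the combination fell by 1.07 ± 0.37 SE on the log2 scale (edgeR, adjusted p = 0.0297). That call was lost without any of combination replicates 1, 2, 3, 5 or 6 or ethanol replicates 1 or 3 (adjusted p from 0.0522 to 0.0714). The combination against vehicle, -0.86 ± 0.36 SE, did not pass (edgeR, adjusted p = 0.067), but did without combination replicate 4 (-1.34, adjusted p = 0.00269) or DEHP replicate 5 (-0.86, adjusted p = 0.031). It also passed with all libraries in limma, on log2(FPKM + 1) (-0.98, adjusted p = 0.0263), on log2(FPKM + 0.1) (adjusted p = 0.0262) and on TPM (-1.04, adjusted p = 0.0172). DEHP against vehicle, -0.75 ± 0.36 SE, did not pass either (edgeR, adjusted p = 0.13), and was -1.21 without DEHP replicate 5 (adjusted p = 0.00796). The highest vehicle value, 207 FPKM, was that of replicate 1, the vehicle library with muscle transcripts, and without that library the change was -0.62 for the combination and -0.50 for DEHP against vehicle. RefSeq lists the predicted gene Gm23686 as overlapping Cyp7b1, and the use of strand in counting is not given, so reads of the pair might not be separable.

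Baat, which joins bile acids to taurine or glycine (gene 12012, chromosome 4, 49489416 to 49507915), was lower by small amounts with DEHP and with the combination. The combination libraries had 77.4 to 107 FPKM (median 97.6), the DEHP libraries 72.8 to 121 FPKM (median 105), the ethanol libraries 92.3 to 117 FPKM (median 104) and the vehicle libraries 117 to 129.9 FPKM (median 125). All combination libraries and all ethanol libraries lay below all vehicle libraries, the highest ethanol value being close to the lowest vehicle value. Baat fell with the combination by 0.38 ± 0.09 SE on the log2 scale against vehicle (edgeR, adjusted p = 0.00212), and with DEHP by 0.29 ± 0.09 SE (edgeR, adjusted p = 0.0198). With ethanol the change of -0.19 ± 0.09 SE did not pass (edgeR, adjusted p = 0.12), while on TPM it was -0.36 (limma, adjusted p = 0.0058). It also passed in edgeR with scaling by library size alone (-0.27, adjusted p = 0.0373) and with only the groups compared (-0.20, adjusted p = 0.0269). The predicted gene Gm32894 overlaps Baat.

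Among the regulators, the repressor gene Nr0b2 was lowest with ethanol alone. Nr0b2 (gene 23957, chromosome 4, 133553376 to 133556686) had 27.1 to 59.8 FPKM with the combination (median 49.9), 38.9 to 75 FPKM with DEHP (median 53.6), 19 to 37.8 FPKM with ethanol (median 27.6) and 34.2 to 62.2 FPKM with vehicle (median 55.5). The ethanol range overlapped that of vehicle only through the 34.2 FPKM of vehicle replicate 6, and all 6 ethanol libraries were under the vehicle mean. Nr0b2 fell with ethanol by 0.78 ± 0.20 SE on the log2 scale against vehicle (edgeR, adjusted p = 0.0063). The combination rose against ethanol by 0.66 ± 0.20 SE (edgeR, adjusted p = 0.0164). Neither DEHP (0.13 ± 0.20 SE, adjusted p = 0.678) nor the combination (-0.12 ± 0.20 SE, adjusted p = 0.67) passed against vehicle in edgeR. The interaction was 0.53 ± 0.28 SE and did not pass (edgeR, adjusted p = 0.259; 95% interval -0.06 to 1.12), so the ethanol change of Nr0b2 was not shown to differ with DEHP.

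Nr1h4, the bile acid sensor FXR (gene 20186, chromosome 10, 89454234 to 89533645), moved in opposite directions with the 2 compounds. Its levels were 27.4 to 35.6 FPKM with the combination (median 33.2), 25.4 to 42 FPKM with DEHP (median 33.4), 49.3 to 59.6 FPKM with ethanol (median 57.5) and 34.4 to 46.7 FPKM with vehicle (median 43.7). The ethanol libraries lay above every library of the other groups. Nr1h4 rose with ethanol by 0.47 ± 0.10 SE on the log2 scale (edgeR, adjusted p = 0.00122), fell with DEHP by 0.35 ± 0.10 SE (adjusted p = 0.0107) and fell with the combination by 0.42 ± 0.10 SE (adjusted p = 0.0017), each against vehicle. Its fall of 0.88 ± 0.10 SE in the combination against ethanol had the smallest adjusted p of the 10 members in any comparison (edgeR, 2.09e-07). The interaction of -0.54 ± 0.14 SE passed (edgeR, adjusted p = 0.0205).

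Nr5a2, which encodes LRH-1 (gene 26424, chromosome 1, 136842562 to 136960448), was called in none of the 6 comparisons by edgeR. Its levels were 8.54 to 11.1 FPKM with the combination, 8.5 to 11.9 FPKM with DEHP, 8.06 to 12.4 FPKM with ethanol and 7.48 to 14.6 FPKM with vehicle. The largest estimate was -0.19 ± 0.12 SE for the combination against vehicle (edgeR, unadjusted p = 0.127). The 95% intervals of the 5 group comparisons lay between -0.45 and 0.16, which bounds its changes in these libraries.

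The FGF receptor pair was highest with ethanol alone. Fgfr4 (gene 14186, chromosome 13, 55152818 to 55168759) had 15.9 to 21.9 FPKM with the combination, 15.9 to 22.8 FPKM with DEHP, 20.4 to 23 FPKM with ethanol and 14.8 to 19.4 FPKM with vehicle. Klb, the co-receptor gene (gene 83379, chromosome 5, 65348411 to 65386957), had 4.37 to 7.62 FPKM with the combination, 4.88 to 6.77 FPKM with DEHP, 7.25 to 11 FPKM with ethanol and 3.91 to 6.83 FPKM with vehicle. For both genes the ethanol libraries lay above all vehicle libraries. Klb rose with ethanol by 0.78 ± 0.14 SE on the log2 scale (edgeR, adjusted p = 0.000208) and Fgfr4 by 0.42 ± 0.09 SE (edgeR, adjusted p = 0.00231), both against vehicle. Against ethanol the combination fell by 0.67 ± 0.13 SE for Klb (edgeR, adjusted p = 0.000454) and by 0.30 ± 0.09 SE for Fgfr4 (edgeR, adjusted p = 0.0185). On TPM the Fgfr4 calls were lost with ethanol against vehicle (0.24, adjusted p = 0.0525) and in the combination against ethanol (-0.17, adjusted p = 0.168). With DEHP alone neither passed against vehicle, Klb at 0.07 ± 0.14 SE (edgeR, adjusted p = 0.732) and Fgfr4 at 0.16 ± 0.09 SE (edgeR, adjusted p = 0.206). The interaction passed for Klb (-0.74 ± 0.19 SE, adjusted p = 0.0207) and for Fgfr4 (-0.46 ± 0.13 SE, adjusted p = 0.036) in edgeR. The Fgfr4 interaction was lost without any of combination replicates 3 to 6, DEHP replicates 1, 2 or 6, ethanol replicate 6 or vehicle replicates 1, 3 or 6 (adjusted p from 0.0532 to 0.0704), and without the 3 libraries with other tissue (-0.34, adjusted p = 0.151). Klb had the lowest counts of the members, 97 to 278 reads per library, where counting error alone is 10.2% at the lowest.

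**Figure D2:**
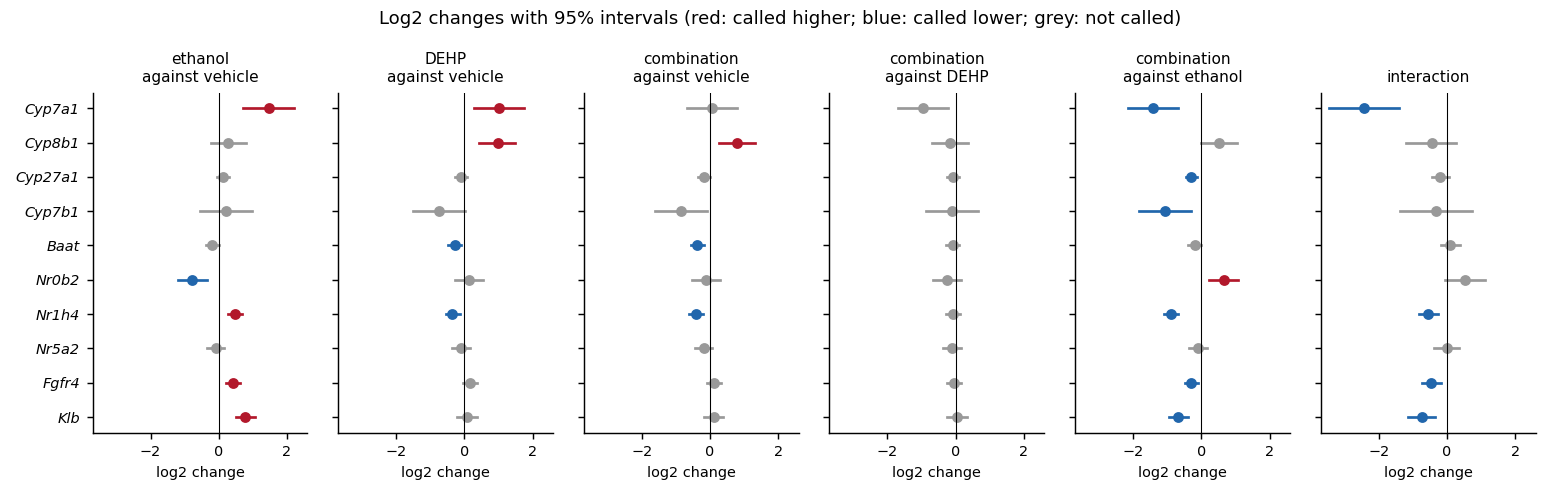
Log2 changes of the 10 members with 95% intervals (lines) in the 5 comparisons of groups and for the interaction, from edgeR; red is called higher, blue called lower and grey not called. Cyp7a1 is called higher with ethanol and with DEHP against vehicle, and its interaction of -2.43 is the farthest from 0.

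Counted over the members, ethanol against vehicle had 4 called higher (Cyp7a1, Nr1h4, Fgfr4 and Klb) and 1 lower (Nr0b2), beside 28.8% of all genes tested that were called in this comparison, 14.2% higher and 14.5% lower. DEHP against vehicle had 2 higher (Cyp7a1 and Cyp8b1) and 2 lower (Nr1h4 and Baat), beside 26% of all genes, 14.4% higher and 11.6% lower. The combination against vehicle had 1 higher (Cyp8b1) and 2 lower (Nr1h4 and Baat), beside 36.8% of all genes, 19.3% higher and 17.4% lower, so its share of members is near the background. On TPM this comparison had 5 members called. The combination against ethanol had 1 higher (Nr0b2) and 6 lower, beside 27.8% of all genes, 15.1% higher and 12.7% lower. The combination against DEHP had 0 members called by edgeR, beside 0.122% of all genes (0.0467% higher and 0.0748% lower), with 1 member, Cyp7a1, at an unadjusted p below 0.05 and 0 called by DESeq2. The interaction had 4 members called, all lower, beside 3.09% of all genes called lower, 3.32% called higher and 6.41% called in either direction. The interaction of Cyp7a1 was known when the members were chosen, so this count is not independent support. Ranges did not overlap for 4 members in ethanol against vehicle (Nr1h4, Fgfr4, Klb and Baat), beside 10.7% of all genes. They did not overlap for 1 member with DEHP (Cyp8b1, beside 9.96%) and 1 with the combination against vehicle (Baat, beside 16.1%), and for 1 in the combination against ethanol (Nr1h4, beside 15.7%). The median change of the members was 0.24 with ethanol, -0.01 with DEHP and -0.15 with the combination against vehicle, beside -0.01, -0.02 and -0.01 over all genes tested. For the interaction it was -0.39, beside 0.01.

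The scaling of libraries bears on the smaller changes. In ethanol against vehicle 49.5% of all calls were higher, while on TPM 14.8% were, with the median of all genes at -0.15, and with library sizes alone 31.1% were. In the combination against ethanol the share was 54.4%, against 78.7% on TPM, with the median of all genes at 0.12. In the interaction 51.7% of calls were higher, against 78.5% on TPM, where the median of all genes was 0.11 and Cyp7a1 was the 1 member still called (-2.29, adjusted p = 0.00935). The interactions of Klb (-0.60, adjusted p = 0.0653), Nr1h4 (-0.42, adjusted p = 0.0696) and Fgfr4 (-0.34, adjusted p = 0.124) then did not pass.

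Set against the separate treatments, the combination did not add up for Cyp7a1. The log2 changes with ethanol and with DEHP sum to 2.48, while the combination measured 0.05 against vehicle. In FPKM, folds that multiplied would give 73 FPKM, against a mean of 13.9 FPKM measured. For Klb the sum was 0.85 and the measured change 0.11, for Fgfr4 0.58 and 0.12, and for Nr1h4 0.12 and -0.42. For Nr5a2 (-0.19 and -0.19) and Baat (-0.48 and -0.38) the 2 values were close. For Nr0b2 they were -0.65 and -0.12 and for Cyp8b1 1.25 and 0.80, differences whose interactions did not pass. The 3 comparisons behind these sums share the vehicle libraries.

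**Figure D3:**
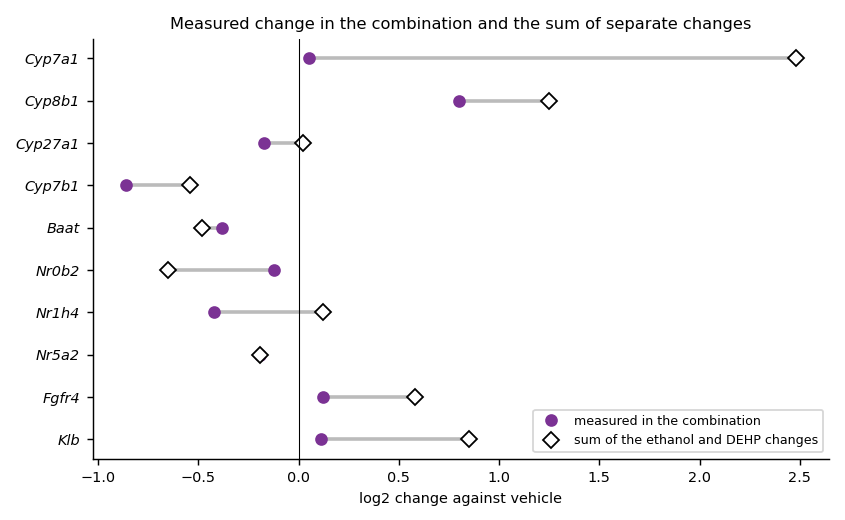
For each of the 10 members, the log2 change measured in the combination against vehicle (filled circle) and the sum of the separate ethanol and DEHP changes (open diamond). The longest gap is that of Cyp7a1, 0.05 measured and 2.48 as the sum.

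Ratios of 2 transcripts within a library do not depend on the scaling between libraries. Cyp8b1 FPKM exceeded Cyp7a1 FPKM by a median of 32.5-fold with the combination, 16.4-fold with DEHP, 7.59-fold with ethanol and 12-fold with vehicle. Between the combination and ethanol the log2 ratio of Cyp7a1 over Cyp8b1 averaged -5.01 ± 0.84 and -2.93 ± 0.55 (SD, n = 6 each). These 2 groups did not overlap (difference -2.07, exact two-sided permutation test p = 0.00216, adjusted p = 0.0108 over 15 ratio tests), and 0.00216 is the smallest p that 6 against 6 libraries allow. Ethanol against vehicle, -2.93 ± 0.55 and -3.95 ± 0.94, did not pass after adjustment (exact permutation test, adjusted p = 0.0928). The log2 ratio of Cyp8b1 over Cyp27a1 averaged 0.25 ± 0.20 with the combination and 0.36 ± 0.22 with DEHP, against -0.86 ± 0.63 with vehicle, and both differences passed (1.11 with adjusted p = 0.0162 and 1.22 with adjusted p = 0.0108, exact permutation tests). With ethanol this log2 ratio averaged -0.61 ± 0.50, and the combination differed from it (0.86, exact permutation test, adjusted p = 0.0108). The median Cyp8b1 to Cyp27a1 ratio was 1.17 with the combination, 1.24 with DEHP, 0.746 with ethanol and 0.512 with vehicle. The log2 ratio of Cyp7a1 over Cyp7b1 averaged -1.15 ± 0.86 with DEHP and -3.04 ± 0.75 with vehicle (difference 1.89, exact permutation test, adjusted p = 0.0195). With ethanol it averaged -1.89 ± 0.75 and the difference from vehicle did not pass (1.16, exact permutation test, adjusted p = 0.0595). With the combination this ratio averaged -2.14 ± 1.46. Its difference from ethanol did not pass either (-0.26, exact permutation test, adjusted p = 0.761), unlike that of Cyp7a1 over Cyp8b1.

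**Figure D4:**
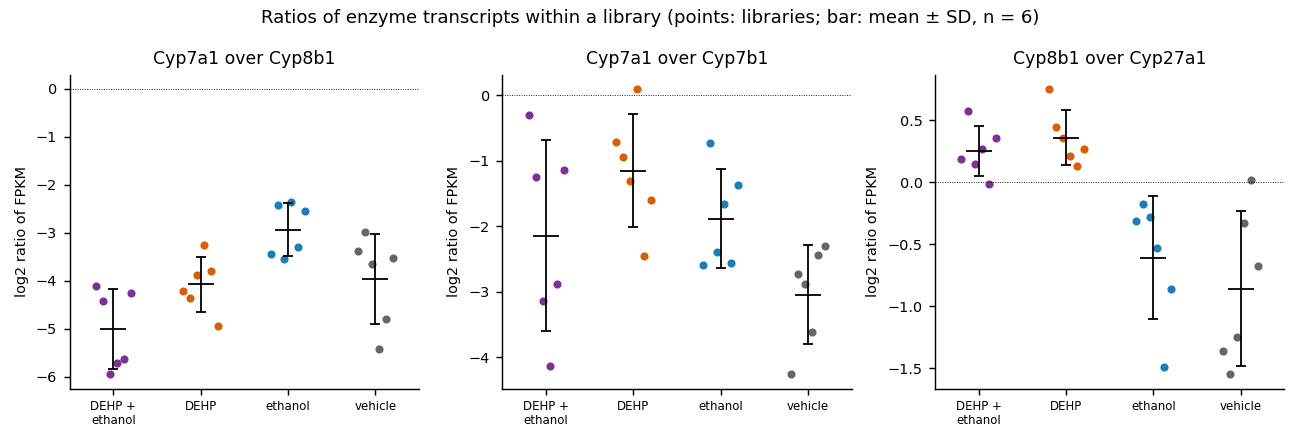
Log2 ratio of the FPKM of 2 enzyme genes within each of 24 libraries (points), with the mean and SD of 6 libraries per group, for the combination, DEHP, ethanol and vehicle from left to right. Cyp7a1 over Cyp8b1 averages -5.01 with the combination and -2.93 with ethanol, without overlap, and Cyp8b1 over Cyp27a1 is higher in both groups with DEHP.

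Cyp7a1 was also set beside each other member across libraries, as deviations from the group mean of log2(FPKM + 1), since the groups themselves stand apart. Of the 9 relations none passed after adjustment. That with the repressor Nr0b2 was the strongest by either measure, with Pearson's r = -0.47 (permutation p = 0.0375, adjusted p = 0.238) and Spearman's rho = -0.49 (permutation p = 0.0263, adjusted p = 0.117) over 24 libraries. Without the 2 libraries farthest from the median of Cyp7a1, r was -0.53. The relation with Nr1h4 had r = 0.39 and rho = 0.44 (permutation p = 0.0529 and 0.0392, adjusted p = 0.238 and 0.117), with r = 0.38 without those 2 libraries. Baat had r = 0.24 (permutation p = 0.293, adjusted p = 0.527) and rho = 0.47 (permutation p = 0.0297, adjusted p = 0.117), with r = 0.15 without those 2 libraries. Klb gave r = 0.26 (permutation p = 0.265) and rho = 0.36 (permutation p = 0.117), and Nr5a2 r = -0.09 (permutation p = 0.652) and rho = -0.06 (permutation p = 0.777). The 5 genes most like Cyp7a1 in these deviations over the 24 libraries were Dll4 (r = 0.66, rho = 0.63), Rasip1 (r = 0.65, rho = 0.59), Asnsd1 (r = 0.64, rho = 0.63), Zfp710 (r = 0.63, rho = 0.65) and Cox14 (r = 0.62, rho = 0.57), picked as the highest of 10697 genes and so given without a test.

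**Figure D5:**
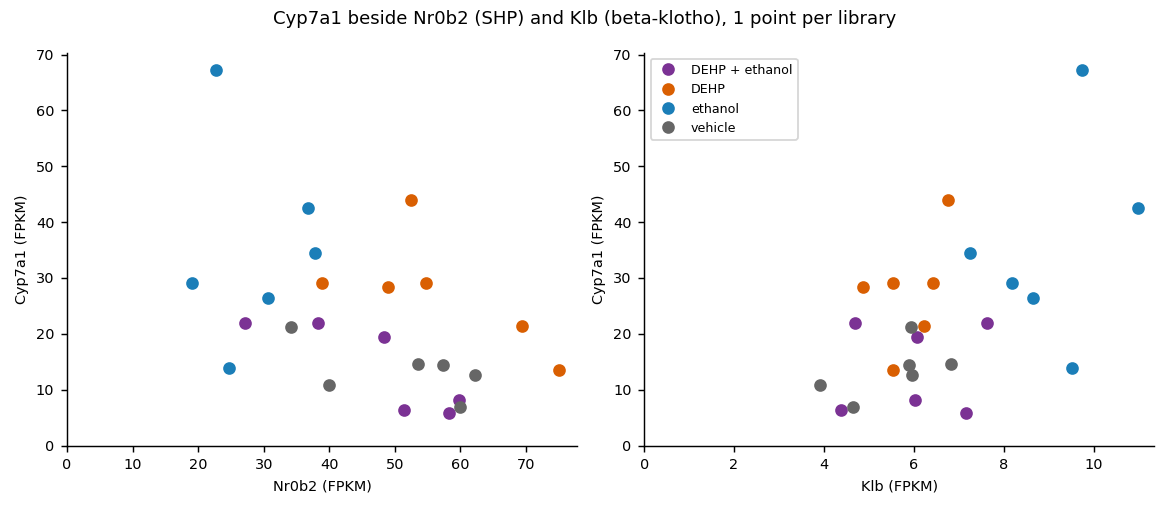
Cyp7a1 against Nr0b2 (left) and against Klb (right) in FPKM, 1 point per library, coloured by group. The ethanol libraries have Nr0b2 of 19 to 37.8 FPKM and Klb of 7.25 to 11 FPKM, while the combination libraries have Cyp7a1 of 5.75 to 22 FPKM.

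Of 14 further genes of synthesis and conjugation, 13 were tested. The combination against vehicle had 4 higher and 3 lower (36.8% of all genes tested were called), DEHP against vehicle 4 higher and 2 lower (26% of all genes), and ethanol against vehicle 1 higher and 0 lower (28.8% of all genes). In the combination against DEHP and in the interaction 0 were called by edgeR. Whether the list differed between DEHP and ethanol was not tested. Hsd17b4, the peroxisomal bifunctional enzyme of side-chain shortening, averaged 363 FPKM with the combination and 348 FPKM with DEHP, against 178 FPKM with vehicle (1.03 and 0.95 on the log2 scale, edgeR, adjusted p = 6.23e-09 and 3.78e-08). Acot8, a peroxisomal thioesterase, averaged 39.6 FPKM with the combination and 33.8 FPKM with DEHP, against 15.4 FPKM with vehicle (1.36 and 1.12). Cyp39a1, an oxysterol hydroxylase, fell to 3.49 FPKM with the combination and 2.04 FPKM with DEHP, against 10.3 FPKM with vehicle (-1.57 and -2.36, edgeR, adjusted p = 0.00011 and 1.95e-06). Cyp2c70, which makes muricholic acids in mice, fell to 130.2 FPKM with the combination and 148 FPKM with DEHP, against 322 FPKM with vehicle (-1.31 and -1.14). The 1 gene called with ethanol was Amacr, the racemase of the side chain (0.26, edgeR, adjusted p = 0.00801).

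Of 18 further regulators of Cyp7a1 and Cyp8b1, the combination against vehicle had 1 higher and 3 lower (36.8% of all genes tested were called), DEHP against vehicle 1 higher and 2 lower (26% of all genes), ethanol against vehicle 4 higher and 3 lower (28.8% of all genes), and the interaction 1 higher and 2 lower (6.41% of all genes). With the combination and with DEHP the share of the list was below that of all genes. Cebpa, a hepatocyte transcription factor gene, averaged 161 FPKM with the combination, 161 FPKM with DEHP, 297 FPKM with ethanol and 154 FPKM with vehicle. It rose with ethanol by 1.02 on the log2 scale (edgeR, adjusted p = 1.28e-07), and its interaction passed (adjusted p = 0.000131). Ppargc1a, a coactivator gene of fasting, changed with ethanol by -1.04 (edgeR, adjusted p = 0.00041). Hnf4a, whose product binds the Cyp7a1 and Cyp8b1 promoters, averaged 127 FPKM with the combination and 140.5 FPKM with DEHP. Its mean was 148 FPKM with ethanol and 179.8 FPKM with vehicle. Against vehicle it changed by -0.51 with the combination and by -0.37 with DEHP (edgeR, adjusted p = 0.00012 and 0.00381). Foxo1 averaged 5.94 FPKM with the combination, 8.18 FPKM with DEHP and 6.93 FPKM with ethanol. With vehicle it averaged 11.8 FPKM, and every treated library lay below the vehicle range. Of the 8 other FGF signalling genes 6 were tested, each group against vehicle. With the combination 0 were higher and 4 lower (36.8% of all genes tested were called, 17.4% lower). With DEHP 0 were higher and 3 lower (26% of all genes, 11.6% lower). With ethanol 1 was higher and 1 lower (28.8% of all genes, 14.5% lower). Fgfr3 was called higher with ethanol against vehicle (0.46) and lower with DEHP (-0.36). Fgf15 was not listed in any library, and Fgf21 stayed at or below 1.73 FPKM.

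Of 9 further FXR target genes of liver, 7 were tested, with 2 higher and 2 lower with the combination (36.8% of all genes tested were called), 3 higher and 1 lower with DEHP (26% of all genes), and 3 higher and 0 lower with ethanol (28.8% of all genes), each against vehicle. Abcb11, the bile salt export pump gene, averaged 134 FPKM with the combination and 139 FPKM with DEHP, against 182 FPKM with vehicle (-0.45 and -0.41, edgeR, adjusted p = 0.0168 and 0.0368). Ethanol against vehicle gave -0.24 for Abcb11 (edgeR, adjusted p = 0.204). Pltp, the phospholipid transfer protein gene, averaged 209 FPKM with the combination, 211 FPKM with DEHP and 55.3 FPKM with ethanol, against 27.4 FPKM with vehicle.

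Clock factors described as acting on Cyp7a1 formed the last list, with 9 of 10 tested. Against vehicle, 4 were higher and 3 lower with the combination (36.8% of all genes tested were called), 1 higher and 2 lower with DEHP (26% of all genes), and 5 higher and 3 lower with ethanol (28.8% of all genes). In the interaction 3 were higher and 3 lower (6.41% of all genes). Dbp, an activator of the D-box, had 1.21 to 6.88 FPKM with the combination, 0.65 to 1.94 FPKM with DEHP, 16.6 to 77.3 FPKM with ethanol and 0.36 to 1.67 FPKM with vehicle, and its interaction was -4.92 (edgeR, adjusted p = 0.000131). Nfil3, a repressor of the same element, averaged 32 FPKM with the combination, 35.7 FPKM with DEHP, 16.4 FPKM with ethanol and 40 FPKM with vehicle, with an interaction of 1.06 (edgeR, adjusted p = 0.00231). The time of collection is not given in the labels, and its part in the levels of Cyp7a1 was not tested.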

How the data were processed

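RNA sequencing of liver was available as 24 tables, 1 per library. The authors deposited expected counts, which are estimated reads per gene, and FPKM, which the file headers name and which divide the counts by transcript length and library total. The submitters' processing notes name Cuffdiff, mm10 and GRCm38, with no role; for the aligner, the counter and strand use, details were not given in the sources used here. Between 94.5% and 95.3% of deposited expected counts were whole.

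A gene absent from a table was set to 0. Genes at 1 FPKM or more in at least 6 libraries were tested. After rounding, edgeR 4.0.16 under R 4.3.3 fitted the counts with TMM scaling, 4 groups in 1 fit, 20 residual degrees of freedom and Benjamini-Hochberg adjustment over all genes tested. Standard errors are the unshrunken change over the square root of F, and 95% intervals use the t distribution. Alternatives used DESeq2 1.42.0, limma 3.58.1 on log2(FPKM + 1), other scalings and filters, and fewer libraries. Ratios used exact permutation tests. Correlations used 100000 permutations within groups, with Benjamini-Hochberg adjustment over 9 relations. Promoters came from RefSeq, GRCm38.p6. The fit was tested on simulated data.

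Counting error was at most 10.2% for the members, at the 97 reads of Klb in vehicle replicate 1, a library with a total of 7538356. No 2 libraries held identical values. The members and gene lists were chosen with earlier results of these data known, among them the interaction of Cyp7a1. The text names every member, up to 4 called genes with the smallest adjusted p of each other list in a comparison, and the 5 genes most like Cyp7a1 within groups. Ehhadh was a check on DEHP. Slc10a2 was named after its values were seen.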

Additional observations from a re-analysis of the deposited data

Results flagged for a closer look

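In 6 of 40 sets of 6 libraries, 1 set for each member and group, a single library stood apart from the others by a gap over the 95% critical value of Dixon's test. For normally distributed values chance alone gives such a gap in about 1 set in 20. Whether these FPKM follow that distribution was not tested, so the count cannot be read as an excess. Of these, 3 were high values of Cyp7b1, at 144 FPKM in combination replicate 4 (the others 24 to 52 FPKM), 159 FPKM in DEHP replicate 5 (40.9 to 72.4 FPKM) and 207 FPKM in vehicle replicate 1 (78.9 to 105 FPKM). Cyp8b1 reached 524 FPKM in DEHP replicate 1, with 405 to 439 FPKM in the other DEHP libraries. Nr1h4 was low at 49.3 FPKM in ethanol replicate 3 (56.6 to 59.6 FPKM in the others) and at 34.4 FPKM in vehicle replicate 3 (42.7 to 46.7 FPKM).

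The ethanol change differed with and without DEHP for 4 members by the interaction test of edgeR: Cyp7a1 (-2.43, adjusted p = 0.00459), Klb (-0.74, adjusted p = 0.0207), Nr1h4 (-0.54, adjusted p = 0.0205) and Fgfr4 (-0.46, adjusted p = 0.036). On TPM the call of Cyp7a1 remained and those of the other 3 were lost. The Cyp7a1 interaction was already known when the members were chosen.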

How the results depend on the processing

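Of 2090 values of single members under the alternatives, 1998 kept their direction and side of the threshold. Of the 801 that concern a call, 762 kept it, 39 lost it and 0 changed sign. The counts of members called stayed within 1.5 times, except on TPM, where the combination against vehicle had 5 in place of 3 and the interaction 1 in place of 4. Leaving out each library gave 5 for ethanol, 3 to 4 for DEHP and 3 to 4 for the combination against vehicle, 0 against DEHP, 6 to 7 against ethanol and 3 to 4 for the interaction.

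The replicate numbers of the titles were checked as a pairing. In the 5 comparisons of groups, same-numbered libraries correlated at -0.21 to 0.21 in their deviations from the group means. At most 2 of 6 pairs were over 0.1, so no pairing was seen over all genes and none was used. A shared factor that acts on few genes was not tested. With the replicate block, the counts of members called were 5, 4 and 3 against vehicle, 0 against DEHP, 7 against ethanol and 4 for the interaction, as without it, and Cyp7a1 against vehicle in the combination was -0.07.

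Signs turned for values that were not called. Cyp7a1 in the combination against vehicle was -0.08 and -0.10 on log2 FPKM with 1 and 0.1 added, -0.13 on TPM, -0.20 without the 3 libraries with other tissue, and -0.14 to 0.23 without 1 library. On TPM, Cyp27a1 with ethanol against vehicle was -0.05, Klb in the combination against DEHP -0.03 and Nr5a2 in the combination against ethanol 0.03. Without the 3 libraries, Nr0b2 (-0.06) and Klb (-0.02) with DEHP against vehicle, Klb in the combination against vehicle (-0.07), and Fgfr4 (0.02) and Klb (-0.05) in the combination against DEHP turned. The Nr5a2 interaction was 0.06 with library sizes alone, 0.05 on log2 FPKM with either pseudocount, 0.11 on TPM and 0.10 without the 3 libraries.

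Leaving out 1 library, the log2 changes of uncalled members that turned ranged as follows. Klb ran from -0.02 to 0.15 with DEHP and from -0.00 to 0.18 with the combination against vehicle, and from -0.04 to 0.10 in the combination against DEHP. Cyp7b1 (-0.59 to 0.35) and Fgfr4 (-0.11 to 0.01) turned in the combination against DEHP, as did the interactions of Cyp7b1 (-0.80 to 0.14) and Nr5a2 (-0.10 to 0.08). Log2 ratios of Cyp7a1 over Cyp8b1 were 0.73 to 1.21 with ethanol (passing without vehicle replicate 2, exact permutation test, adjusted p = 0.0379) and -0.41 to 0.08 with DEHP against vehicle. Those of Cyp7a1 over Cyp7b1 were 0.91 to 1.30 with ethanol against vehicle (passing without vehicle replicate 6 or ethanol replicate 1) and -0.62 to 0.14 in the combination against ethanol. Correlations on log2 CPM kept their sides, with Cyp27a1 at -0.05 in place of 0.02. Over all genes, the combination against DEHP had 5 higher and 8 lower by edgeR, 19 and 25 by DESeq2, 2 and 3 with the replicate block, 0 and 1 without a filter, and 0 in total without any of combination replicates 1, 2 or 5 or DEHP replicates 2 or 3. The interaction had 355 higher and 331 lower, and 196 and 169 without the 3 libraries. The causes of these shifts were not tested. Depth limits Klb most.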

Other observations

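Within the combination group, Cyp7a1 had 19.4, 21.9, 5.75, 8.23, 6.29 and 22 FPKM in replicates 1 to 6, with no library between 8.23 and 19.4 FPKM. Nr0b2, which encodes the repressor SHP, had 48.4, 38.2, 58.3, 59.8, 51.4 and 27.1 FPKM in the same libraries, so that replicates 3, 4 and 5 had both the lowest Cyp7a1 and the highest Nr0b2. Replicate 6, one of the libraries with muscle transcripts, had the highest Cyp7a1 and the lowest Nr0b2. In DEHP replicate 6, the library with pancreas transcripts, Cyp7a1 was the lowest of its group at 13.5 FPKM and Nr0b2 the highest at 75 FPKM. In vehicle replicate 6 Cyp7a1 was the highest of its group at 21.2 FPKM and Nr0b2 the lowest at 34.2 FPKM. The ethanol group was mixed, with Cyp7a1 and Nr0b2 at 67.3 and 22.7 FPKM in replicate 2. They were at 42.5 and 36.8 FPKM in replicate 4 and at 13.8 and 24.7 FPKM in replicate 5, the lowest Cyp7a1 of that group. These libraries were picked after their values were seen, and no separate test was made. All are part of the relation of Cyp7a1 with Nr0b2 above, which did not pass after adjustment.

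Slc10a2, named after its values were seen, is the apical bile acid transporter gene known from ileum and cholangiocytes. It averaged 4.4 FPKM with the combination, 5.36 FPKM with DEHP and 3.96 FPKM with ethanol, against 10.7 ± 4.61 FPKM with vehicle (SD, n = 6). It was called lower by edgeR against vehicle with the combination (-1.29, adjusted p = 0.000101), DEHP (-1.02, adjusted p = 0.00162) and ethanol (-1.36, adjusted p = 0.000159). The 5 cholangiocyte markers summed to 16.8 to 19.4 FPKM with ethanol and 23.5 to 38.8 FPKM with vehicle, without overlap. Spp1 made up most of that sum, at a mean of 13.9 FPKM with ethanol and 23.5 FPKM with vehicle. Sox9 averaged 1.19 FPKM with ethanol and 2.19 FPKM with vehicle, and Epcam 0.792 FPKM with ethanol and 0.95 FPKM with vehicle. Krt7 averaged 0.692 FPKM with ethanol and 0.797 FPKM with vehicle, and Krt19 1.46 FPKM with ethanol and 1.59 FPKM with vehicle. Of the 4 markers tested, 2 were called lower with ethanol against vehicle. Of all genes tested, 28.8% were called in that comparison, 14.5% lower. The part of these cells in the Slc10a2 level was not tested.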
